A study of Pimephales promelas with 139 samples.

Results

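Of 37085 identified transcripts measured in single whole fathead minnow larvae, 100 stood near their usual low level in most larvae and rose far above it in a few. They were chosen on their levels alone. Levels are in CPM, a library's count of a transcript divided by the library's total and multiplied by 1000000. Transcripts that reached at least 20 CPM in any larva, 13436 of them, were ordered by their highest CPM divided by their 90th percentile over larvae plus 0.1 CPM, and the 100 with the highest ratio were taken. The same levels therefore chose the transcripts and set the bursts described here, so the bursts are given without a test. The tests by concentration and experiment use those levels too. A transcript chosen for a few extreme larvae differs in mean between groups wherever these larvae fall unevenly, so the calls among the 100 are descriptions and nothing is read from how their share compares with that of all transcripts.

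Fathead minnow (Pimephales promelas) larvae were exposed from 48 h after hatching, for 48 h, to ethinyl estradiol, a synthetic estrogen, and were collected whole at an age of 96 h. The larvae used here were 29 controls kept without it (0 ng/L), and groups of 17, 30, 17, 17 and 28 larvae exposed to 0.12, 1.2, 2.5, 5 and 10 ng/L. They came from 3 experiments with 45, 46 and 47 of the larvae, and every experiment held every concentration. Each library holds 1 larva, and a larva is called here by its number in the labels; vessels and parents are not given in the labels, so p-values measure the spread between these larvae, some of which may share a vessel. The libraries held 8756290 to 32906788 counts, with a median of 23473365.

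Ethinyl estradiol binds the nuclear estrogen receptors, which act as transcription factors, and its best known target in fish is the liver gene for the egg yolk precursor vitellogenin. A level measured in a whole animal sums all of its organs. In a whole larva, more cells of a type and more RNA per cell cannot be told apart. The files give identifiers only, and none of the 100 matched the reference gene table of the species, so no role is given for any of them.

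The 100 transcripts were scarce in the typical larva, which the ratio that chose them favours. Their median level over larvae ran from 0 to 41.24 CPM with a median of 1.423 CPM, against 27.82 CPM for the 13336 other transcripts that reached 20 CPM. Their highest levels ran from 20.27 to 1833 CPM. The median of these, 53.5 CPM, was similar to the 47.65 CPM of the others, which reached up to 32800 CPM. The ratio that chose them ran from 6.831 to 226.3 with a median of 13.11, while the others had a median of 1.292. The last transcripts taken were FMt043362, FMt038208 and FMt020253 with ratios of 7.076, 6.964 and 6.831. The first left outside were FMt024064, FMt021817 and FMt023007 with 6.765, 6.761 and 6.736, so no gap marked the border.

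FMt041062 had the highest ratio, 226.3. It reached 125.6 CPM in larva 27 at 1.2 ng/L, 56.56 CPM in larva 28 at 0.12 ng/L, 39.12 CPM in larva 38 at 2.5 ng/L and 10.61 CPM in larva 17 at 1.2 ng/L. The next larva, larva 47 at 10 ng/L, had 1.108 CPM, the median larva had 0.1452 CPM, and 16 larvae had no count. The transcript was thus far above all other larvae in 4 larvae of 3 concentrations, and the highest of the 29 controls had 0.5754 CPM.

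The same 4 larvae were the highest for the next 4 transcripts in the order. FMt036449 had 29.52, 15.15, 14.21 and 2.47 CPM in them and no count in 85 larvae. FMt047349 had 26.75, 17.05, 12.61 and 4.207 CPM, and 67 larvae had no count. FMt013681 had 100.3, 76.75, 60.39 and 41.07 CPM, with 4.8 CPM in the next larva. FMt020452 was the most abundant of them, with 1645 CPM in larva 28 at 0.12 ng/L, 1562 CPM in larva 27 at 1.2 ng/L, 1498 CPM in larva 38 at 2.5 ng/L and 719.7 CPM in larva 17 at 1.2 ng/L. It was present in every larva, from 3.234 CPM upwards with a median of 5.845 CPM, and the next larva had 121.3 CPM.

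Among the 12 highest ratios, FMt022325 and FMt003077 had the same 4 highest larvae, though 3 further larvae stood above the rest for FMt022325, at 51.09, 42.31 and 34.77 CPM. The other 5 of the 12 had other larvae at the top. FMt043101 reached 87.85 CPM and FMt035733 34.76 CPM in larva 27 at 0.12 ng/L. The second highest larva had 13.62 CPM of the first and 10.62 CPM of the second. FMt026576, FMt030645 and FMt044460 were highest in larva 57 at 10 ng/L, at 655.6, 165.9 and 59.24 CPM, and second highest in larva 27 at 0.12 ng/L, at 173.5, 54.97 and 43.73 CPM. Their levels then fell off gradually, without the step seen for FMt041062.

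**Figure D1:**
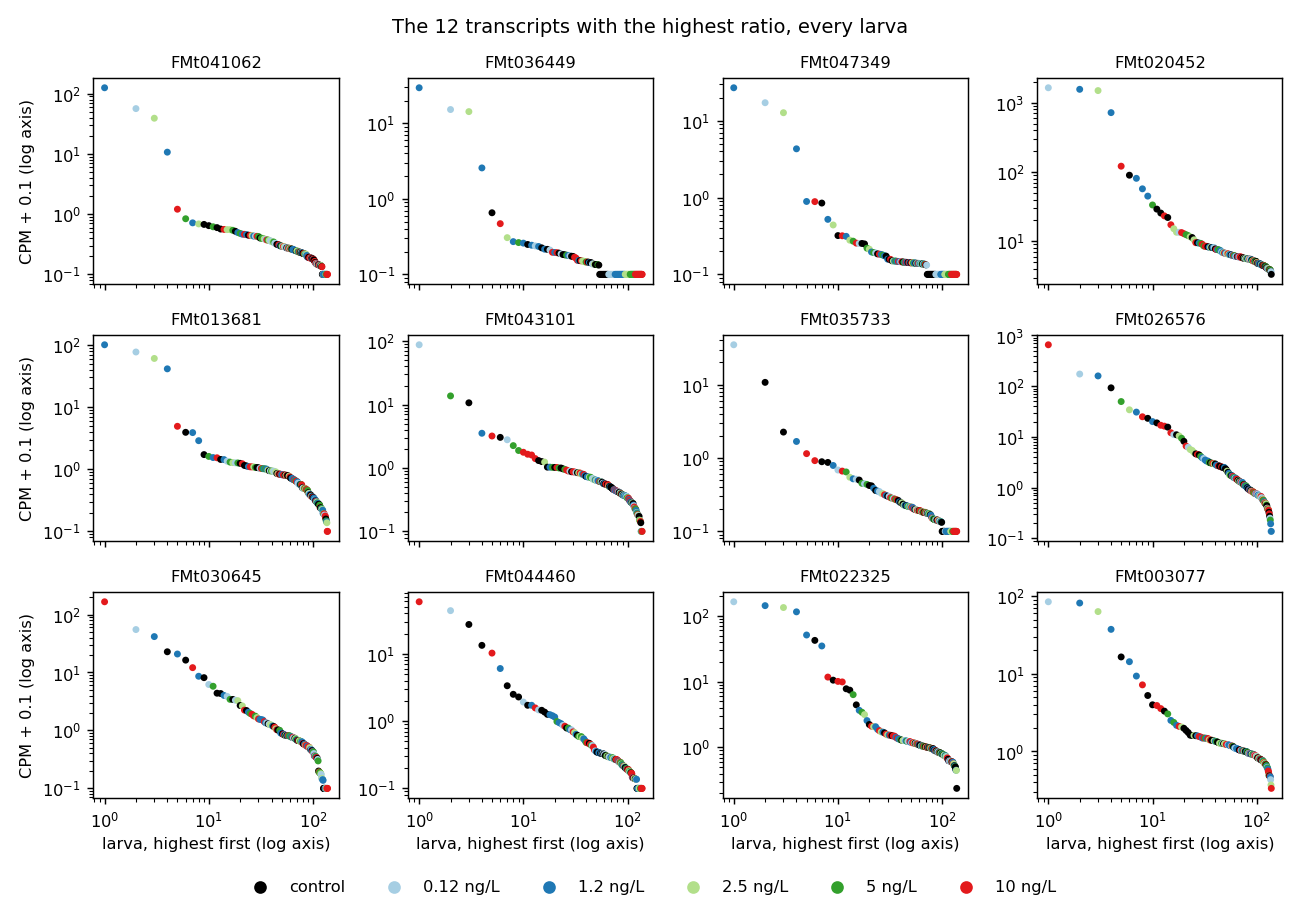
Level of the 12 transcripts with the highest ratio in each larva, ordered from the highest; both axes are logarithmic, the vertical axis is CPM + 0.1, and each point is 1 larva coloured by ethinyl estradiol concentration. FMt041062, FMt036449, FMt047349, FMt020452 and FMt013681 drop after the same 4 larvae, while FMt026576, FMt030645 and FMt044460 decline gradually.

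A burst was counted where a transcript in a larva reached at least 5 times its own 90th percentile plus 0.1 CPM, and at least 5 CPM. The 100 transcripts gave 353 bursts. A burst lies above the transcript's own 90th percentile, which also entered the choice, so bursts had to be rare for each transcript. Within that limit, 16 transcripts burst in 1 larva, 12 in 2, 26 in 3 and 26 in 4, and the other 20 in 5 to 12. FMt036634 burst in 12 larvae, FMt044491 in 11 and FMt026700 in 9. FMt036634 was highest in larva 2 of the controls at 53.45 CPM and in larva 18 at 10 ng/L at 48.62 CPM, with a median of 1.04 CPM, and its bursts spread over all 6 groups. FMt044491, at 203.7 CPM in larva 52 and 195.5 CPM in larva 72 of the controls against a median of 12.01 CPM, had no burst at 5 ng/L.

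Bursts fell in 70 larvae and none in the other 68, and 7 larvae held 52.12% of them. Larva 38 at 2.5 ng/L had 37 bursts, larva 28 at 0.12 ng/L had 35, larva 27 at 1.2 ng/L had 35 and larva 17 at 1.2 ng/L had 34. These 4 larvae together held 39.94% of all bursts, and they are called the 4 leading larvae. Larva 57 of the controls followed with 15 bursts, and larvae 12 and 57 at 10 ng/L had 14 each. A further 10 larvae had 5 to 10 bursts, and the median over all larvae was 1. In number of transcripts at their maximum, larva 28 at 0.12 ng/L led with 18, before larva 27 at 1.2 ng/L with 15 and larvae 12, 57 and 27 at 10 ng/L with 12, 11 and 10.

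**Figure D2:**
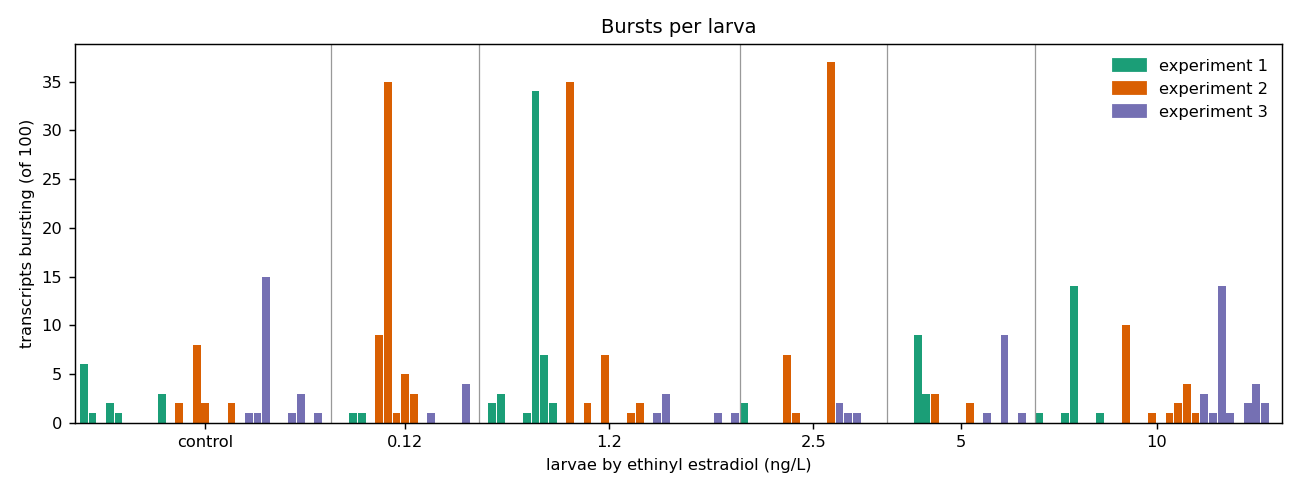
Number of the 100 transcripts that burst in each larva (bars), by concentration and, by colour, experiment. The tallest bars, at 34 to 37 transcripts, are 4 larvae at 0.12, 1.2 and 2.5 ng/L; the highest control larva has 15.

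Which concentrations held the bursts turned on those 4 larvae. The mean number of bursts per larva was 1.69 in controls and 3.529, 3.4, 3, 1.647 and 2.25 in the groups at 0.12, 1.2, 2.5, 5 and 10 ng/L. The medians were 1, 1, 0.5, 0, 0 and 1, and the highest larvae had 15, 35, 35, 37, 9 and 14. Without the 4 leading larvae, the means at 0.12, 1.2 and 2.5 ng/L were 1.562, 1.179 and 0.875. These 4 were left out for having the most bursts and all were exposed, while the control mean of 1.69 still held larva 57 with 15 bursts. The groups were thus not trimmed alike, and no comparison with the controls is read from these means. Controls held 13.88% of the bursts and 21.01% of the larvae, and 23.11% of the bursts when the 4 leading larvae were left out. A burst of any transcript was seen in 51.72% of control larvae and in 50.46% of exposed larvae; the choice of transcripts used these levels, so no test is given. These means did not follow the order of the concentrations.

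Control larvae were at the maximum of 12 of the 100 transcripts, and 63 transcripts had no burst in a control. Larva 57 of the controls had the maximum of 5, among them FMt038156 at 602.9 CPM against a median of 15.59 CPM, and FMt009319 at 123.8 CPM against 1.487 CPM. The experiments held 95, 183 and 75 bursts, in 20, 25 and 25 of their larvae. Without the 4 leading larvae, of which 3 were in experiment 2 and 1 in experiment 1, the counts were 61, 76 and 75. By maximum, 20 transcripts peaked in experiment 1, 58 in experiment 2 and 22 in experiment 3. Bursts of 1 transcript came from 1 experiment for 30 transcripts, from 2 for 55 and from all 3 for 15, and 17 transcripts burst at a single concentration. The 16 transcripts that burst in only 1 larva are by necessity among these 30 and these 17. The other of the 17 was FMt036339, with 5 bursts at 10 ng/L.

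Many transcripts burst in the same larvae. Of the 4950 pairs among the 100, 1268 pairs (25.62%) burst together in at least 1 larva. A pair was linked where it shared at least 50% of all larvae in which either burst, and all transcripts connected by links formed a group. Links could run through other transcripts, so 2 members of a group need not share a burst larva. In the group of 17, FMt038452 burst only in larva 57 of the controls and FMt030649 only in larva 12 at 10 ng/L. That gave 8 groups holding 85 transcripts, of 36, 17, 11, 10, 4, 3, 2 and 2 members, and left 15 transcripts alone. For a group, the level in a larva is the median over its members of CPM divided by the member's median over larvae plus 0.1 CPM, so a value near 1 is an ordinary larva. Correlations below are Pearson's r of log2(CPM + 0.1) over the libraries, which share depth between transcripts, and they are descriptions.

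**Figure D3:**
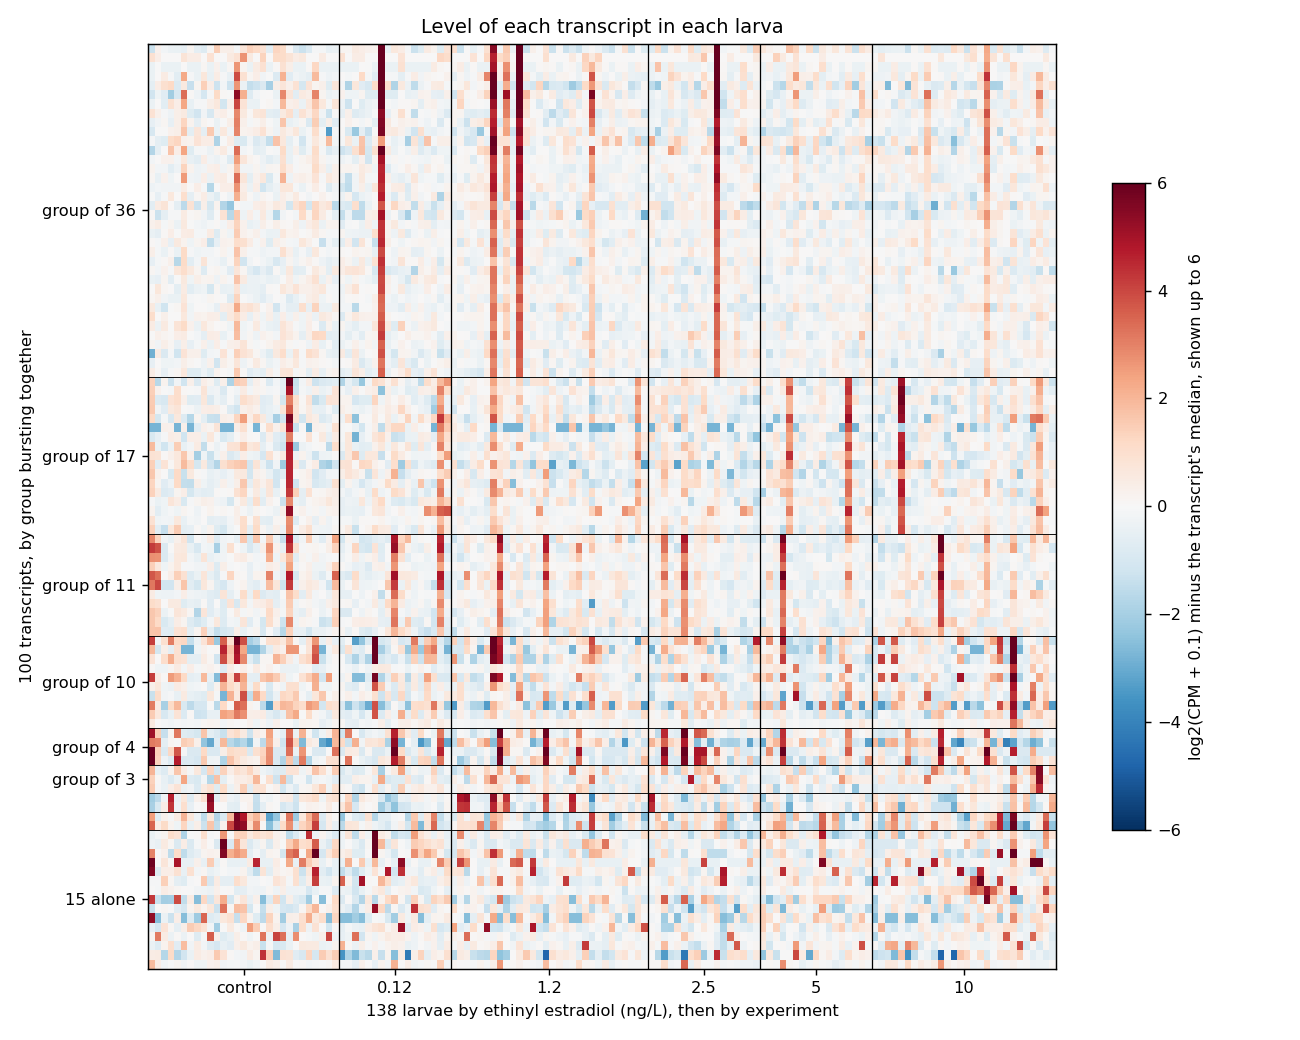
Level of each of the 100 transcripts (vertical axis, by group bursting together) in each larva (horizontal axis, by concentration and then experiment), as log2(CPM + 0.1) minus the transcript's median; red is above and blue below the median, and values over 6 are drawn as 6. Vertical red bars are larvae in which many members of a group were raised: 4 larvae for the group of 36, and other larvae for the groups of 17, 11 and 10. In some larvae of the groups of 17 and 10, not every member was raised.

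The group of 36 burst almost as one. Its level was 24.1 in larva 27 at 1.2 ng/L, 21.28 in larva 28 at 0.12 ng/L, 18.42 in larva 38 at 2.5 ng/L and 13.14 in larva 17 at 1.2 ng/L. These larvae held bursts of 35, 35, 36 and 28 of the 36 members, and in the first 3 every member was at least 5.466 times its median plus 0.1 CPM. The 4 larvae were the 4 highest of all larvae for 34 of the 36 transcripts, and 26 members burst in all 4. They belong to 3 concentrations and 2 experiments. The median level was 0.8793, 0.8905 and 0.8794 at 0.12, 1.2 and 2.5 ng/L and 0.8811 in controls. Members were chosen to be low in most larvae, and their levels are divided by their medians over larvae. Medians near 1 follow largely from this, so no comparison between concentrations is read from them.

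Below the 4 leading larvae came a smaller step of 4 others. Larva 47 at 10 ng/L had a level of 4.501, larva 33 of the controls 3.268, and larvae 53 and 22 at 1.2 ng/L 2.993 and 2.652, and all others were at 1.641 or less. Larva 47 at 10 ng/L was next after these 4 for 15 of the 36 transcripts. In the 17 larvae at 5 ng/L the level ran from 0.7065 to 1.446, so none of these larvae showed the rise.

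Within the group the closest pair was FMt020452 and FMt029852, with r = 0.9191 over all libraries. FMt029852 had 131.1 and 76.01 CPM in larvae 27 and 17 at 1.2 ng/L, 94.53 CPM in larva 28 at 0.12 ng/L and 108.2 CPM in larva 38 at 2.5 ng/L, against a median of 3.896 CPM. FMt028304, the second most abundant member in larva 28 at 0.12 ng/L, had 234.3 CPM there, 180 and 136 CPM in larvae 27 and 17 at 1.2 ng/L, 121.1 CPM in larva 38 at 2.5 ng/L and a median of 14.73 CPM. The median r over pairs of members was 0.7289 in all larvae and 0.1379 in the 130 larvae in which no member burst. Some members were near 0 in most larvae, such as FMt036449 with no count in 85 of them. Few counts decide such values, so how far the members varied together outside the burst larvae is uncertain.

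The rise of these 4 larvae reached beyond the chosen transcripts. Among 34659 transcripts with at least 1 CPM in some larva, 671 (1.936%) had exactly these 4 larvae as their 4 highest, 34 of them members. The next most frequent set of 4 larvae was shared by 98 transcripts. For the 637 that were not members, the smallest of the 4 levels was typically 2.445 times the transcript's median plus 0.1 CPM, and it was at least 3 times for 234 of them. In 31 members and 70 other transcripts all 4 larvae were at least 2 times above every other larva. Of 27851 transcripts with a median of at least 1 CPM, 510 were highest and 55 were lowest in these 4 larvae.

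The 4 leading libraries were among the shallower ones. Larvae 27 and 17 at 1.2 ng/L held 10468432 and 10932870 counts, larva 28 at 0.12 ng/L held 13667599 and larva 38 at 2.5 ng/L held 13163555, and 13 of all libraries were at or below the deepest of them. Of the 9 libraries under 0.5 times the median total, 7 had no burst of the group of 36, and 2 were leading larvae. Bursts in these larvae rested on many reads: FMt020452 had 7868 to 22477 counts in the 4, and FMt041062 had 116 to 1315. Over all larvae, libraries with a burst had a median total of 23345665.5 and those without one 23519817.5. The part of depth in the rise was not tested.

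**Figure D4:**
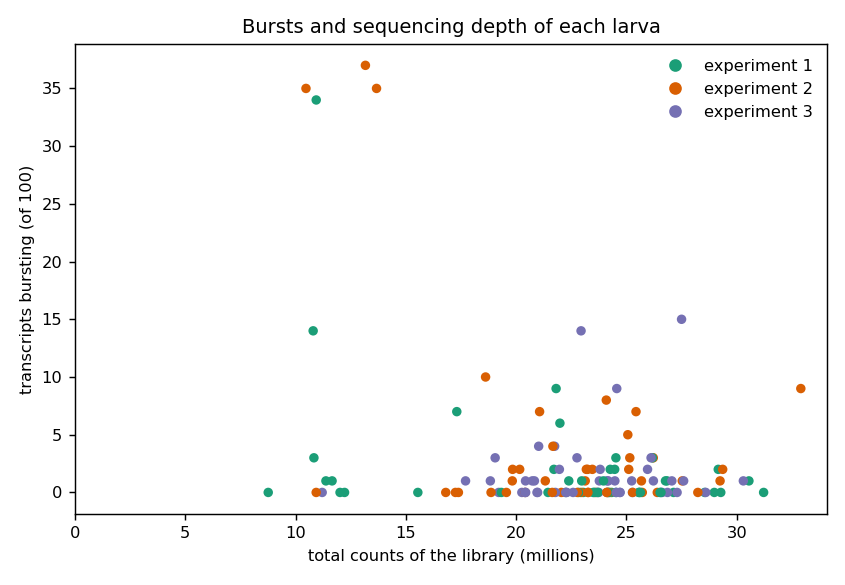
Number of the 100 transcripts that burst in each larva (vertical axis) against the total counts of its library, drawn in units of 1000000 counts (horizontal axis), coloured by experiment; each point is 1 larva. The 4 larvae with 34 to 37 bursts lie at 10468432 to 13667599 counts, beside libraries of like depth with 0 to 3 bursts and 1 with 14.

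The group of 17 rose in other larvae, a control among them. Its level was 26.09 in larva 12 at 10 ng/L, 23.54 in larva 57 of the controls, 13.13 in larva 57 at 5 ng/L, 6.396 in larva 62 at 0.12 ng/L and 5.317 in larva 12 at 5 ng/L, and at most 4.002 elsewhere. Larva 12 at 10 ng/L had the maximum of 12 members and larva 57 of the controls that of the other 5. Not every member rose in larva 12 at 10 ng/L: 14 of the 17 burst there. The members' levels in it ran from 0.1322 to 56.25 times their median plus 0.1 CPM. FMt009319 had 123.8 CPM in the control larva and 54.29 CPM in larva 12 at 10 ng/L, and 26.83 CPM in larva 57 at 5 ng/L. FMt020254 had 49.38 CPM in larva 12 at 10 ng/L, 30.04 CPM in the control and 19.99 CPM in larva 57 at 5 ng/L, with a median of 0.8673 CPM. FMt030647 and FMt017610 reached 138.3 and 111.1 CPM in larva 12 at 10 ng/L, against medians of 5.753 and 6.734 CPM.

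The closest pair of this group was FMt015663 and FMt015667 (r = 0.8176), at 90.42 and 27.42 CPM in larva 12 at 10 ng/L. The median r over pairs was 0.5688 in all larvae and 0.2745 in the 133 without a burst of the group. The larvae numbered 12 in the 10 and 5 ng/L groups were among the 9 shallow libraries, with 10793856 and 10828473 counts, while larva 57 of the controls had 27499032. The group was therefore raised in shallow and deep libraries, in experiments 1 and 3, and both with and without ethinyl estradiol.

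The group of 11 gave a graded series of larvae. Its level was 17.43 in larva 27 at 10 ng/L, 17.21 in larva 8 at 5 ng/L, 9.368 in larva 33 at 0.12 ng/L, 8.586 in larva 18 at 1.2 ng/L, 7.777 in larva 62 at 0.12 ng/L, 7.593 in larva 27 at 2.5 ng/L, 5.429 in larva 37 at 1.2 ng/L and 5.348 in larva 57 of the controls. Every concentration, the controls and each experiment had at least 1 larva among these 8, and the next larva was at 4.503. FMt016463, the member with the highest ratio, burst in all 8, at 75.06 CPM in larva 27 at 10 ng/L and 21.75 CPM in the control, with a median of 0.6677 CPM. FMt023008 and FMt015609 were the most abundant members in larva 27 at 10 ng/L, at 298.6 and 224.8 CPM. FMt015609 and FMt042861 were the closest pair (r = 0.8733), and the median r over pairs was 0.7042 in all larvae and 0.3628 in the 130 without a burst of the group.

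A group of 4 overlapped with these larvae. FMt000559, FMt029194, FMt018521 and FMt002705 had group levels of 63.11 in larva 27 at 2.5 ng/L, 61.67 in larva 18 at 1.2 ng/L, 56.46 in larva 2 of the controls, 51.56 in larva 37 at 1.2 ng/L and 33.79 in larva 33 at 0.12 ng/L. FMt002705 was highest in the control larva, at 285.9 CPM against a median of 3.543 CPM. FMt018521, with no count in 48 larvae, was closest to FMt000559 (r = 0.8876). Members of both the group of 11 and the group of 4 burst in 5 larvae, which were larvae 18 and 37 at 1.2 ng/L and, from the 0.12, 2.5 and 5 ng/L groups, larvae 33, 27 and 8. FMt034573 joined no group but had its 5 highest levels in 5 larvae of the group of 11, from 446.9 CPM in larva 27 at 2.5 ng/L to 175.6 CPM in larva 33 at 0.12 ng/L, against a median of 40.65 CPM.

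The larvae in which groups burst were also placed by a transcript whose median was higher at each step from 1.2 to 10 ng/L. FMt030408, which is not among the 100 and was singled out after its values were seen, had a median level of 0.456 CPM in controls and of 0.4558, 10.82, 28.9, 88.29 and 170 CPM at 0.12, 1.2, 2.5, 5 and 10 ng/L. Of the 8 larvae in which the group of 11 burst, 6 were below the median of their own group. FMt030408 was second lowest of its concentration in larva 27 at 10 ng/L (81.61 CPM), larva 8 at 5 ng/L (36.59 CPM), larva 27 at 2.5 ng/L (13.13 CPM) and larva 18 at 1.2 ng/L (0.9245 CPM), and in place 5 of 30 from the lowest in larva 37 at 1.2 ng/L (4.7 CPM). In the remaining 3 it took place 3 of 17 in larva 33 and place 16 of 17 in larva 62 at 0.12 ng/L, and place 27 of 29 in larva 57 of the controls. None of the 5 larvae of the group of 17 was below the median of its own concentration. Larva 12 at 10 ng/L had place 18 of 28. Larvae 12 and 57 at 5 ng/L had places 9 and 14 of 17, and place 9 is the median itself. Larva 62 at 0.12 ng/L had place 16 of 17 and larva 57 of the controls place 27 of 29. These last 2 are also larvae of the group of 11. In the leading larvae of the group of 36, FMt030408 took place 7 of 17 at 2.5 ng/L, places 12 and 15 of 30 at 1.2 ng/L and place 15 of 17 at 0.12 ng/L. FMt030408 was also below the median of the larva's own concentration in 6 of the 8 larvae in which the group of 36 burst. The same held for 5 of 7 larvae of the group of 10 and for all 6 of the group of 4. The groups share larvae: most of those of the group of 4 are also larvae of the group of 11. The group of 10 shares larvae with the groups of 36 and 11. Some larvae lay close to the median, such as larva 17 at 1.2 ng/L at 10.52 against 10.82 CPM. In controls and at 0.12 ng/L few counts decide a place. A median leaves about as many larvae below it as above, so no pattern is read from these tallies. The part of FMt030408 in the bursts was not tested.

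The group of 10 was led by larva 57 at 10 ng/L, with a level of 34.54 and the maximum of 9 members, before larva 27 at 0.12 ng/L with 13.75 and larva 33 of the controls with 10.41. FMt026576 fell from 655.6 CPM in the first to 173.5 and 92.75 CPM in the others, and FMt030645 from 165.9 to 54.97 and 22.67 CPM. FMt026575 had 30.99, 22.94 and 10.09 CPM and a median of 0.2611 CPM. This was the loosest of the large groups, with a median r of 0.3738, and the members' levels in larva 27 at 0.12 ng/L ran from 0.9231 to 134.3 times their median plus 0.1 CPM. Larva 57 at 10 ng/L also had the lowest FMt030408 of its 28 larvae, at 79.94 CPM, while larva 27 at 0.12 ng/L had place 9 of 17 and larva 33 of the controls place 13 of 29. Of the other larvae with a burst of this group, larvae 17 and 18 at 1.2 ng/L had places 15 and 2 of 30. Larvae 27 and 57 at 5 ng/L had places 1 and 14 of 17.

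**Figure D5:**
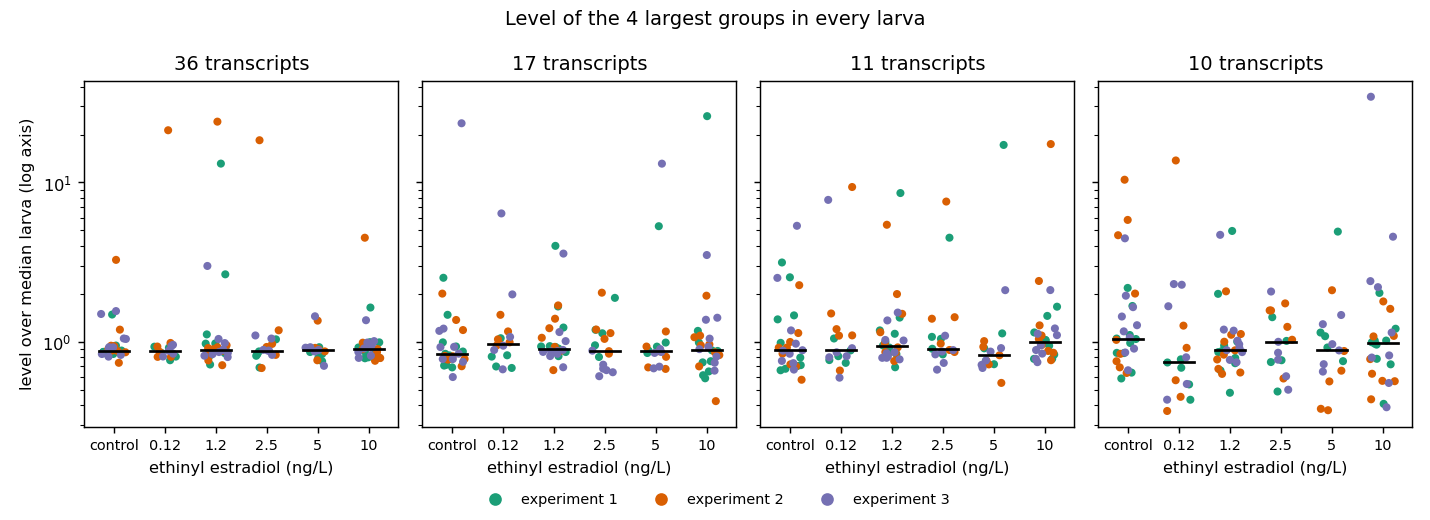
Level of the 4 largest groups in each larva (vertical axis, logarithmic, median over members of CPM divided by the member's median plus 0.1 CPM) by ethinyl estradiol concentration; points are larvae coloured by experiment and black bars are medians of the concentration. Medians stay near 1 at every concentration, which follows largely from the choice of transcripts and the division by their medians. The raised larvae are 4 for the group of 36, with levels of 13.14 to 24.1, and a control is among the highest for the groups of 17 and 10.

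The smaller groups each had their own larvae. FMt014388, FMt002091 and FMt036701 shared their maximum in larva 68 at 10 ng/L, at 1833, 129.1 and 33.78 CPM, and FMt014388 had a second burst of 1112 CPM in larva 28 at 2.5 ng/L. FMt026700 and FMt030786 (r = 0.8958) burst in 9 larvae between them, led by larva 23 of the controls at 64.19 and 26.87 CPM and larva 17 at 1.2 ng/L at 55.98 and 17.2 CPM. FMt040346 and FMt040348 (r = 0.8654) were highest in larva 33 of the controls and larva 57 at 10 ng/L, at 47.79 and 44.81 CPM for the first and 58.87 and 92.23 CPM for the second. In these 2 pairs a control larva was the highest or among the 2 highest.

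In all, 12 larvae burst in more than 1 of the 8 groups. Larva 17 at 1.2 ng/L, a leading larva of the group of 36, also burst in the group of 10, with FMt026576 at 159.4 CPM, and in the pair of FMt026700 and FMt030786. Larva 57 of the controls burst in the groups of 17 and 11, and larva 33 of the controls in those of 36 and 10 and in the pair of FMt040346 and FMt040348. Larva 18 at 1.2 ng/L burst in the groups of 11, 10 and 4. The other 3 leading larvae of the group of 36 burst in no other group, though FMt006905, which joined no group, burst in larva 38 at 2.5 ng/L with 59.63 CPM.

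Neighbouring identifiers were looked at because transcripts numbered together may be similar sequences. Of the 100 transcripts, 7 had a member as the next or previous identifier, and 13 lay in 5 runs with steps of at most 5. FMt026574, FMt026575 and FMt026576 peaked in the same larva, with r from 0.8282 to 0.8573. FMt040345, FMt040346 and FMt040348 had r from 0.5471 to 0.8654. FMt030647 and FMt030649 were in the group of 17 and FMt030645 in the group of 10, with r from -0.02 to 0.7888. FMt020253, highest in larva 8 at 5 ng/L with 98.72 CPM, and FMt020254 peaked in different larvae (r = 0.2252), so neighbours did not always burst together.

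Members were paired with each transcript next to them by identifier that was not a member, which gave 160 pairings. A neighbour lying between 2 members was counted once for each. In 29 pairings (18.12%) the neighbour was at least 3 times its median plus 0.1 CPM in the larva of the member's maximum. Over all transcripts that were not members the share in those larvae was 1.748%, and at most 2.761% in any of them. The authors' counting could split or share reads between similar transcripts, so levels within a run are uncertain, and whether the neighbours share reads cannot be told apart from a rise of their own.

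The concentrations were then compared by edgeR's quasi-likelihood test, fitted to all 37085 transcripts with experiment as a term, with Benjamini-Hochberg adjustment over all of them. Differences are log2 fold changes against the controls. All 100 transcripts were tested, and no filter on low counts was used. At 0.12, 1.2, 2.5 and 5 ng/L, 0 of the 100 passed an adjusted p of 0.05, where 0.0027%, 0.0162%, 0.0135% and 0.0189% of all transcripts did. At an unadjusted p under 0.05 there were 27, 49, 17 and 10 of the 100, where 4.74%, 3.46%, 8.12% and 7.44% of all transcripts were. Without the 4 leading larvae the edgeR counts at that p were 16, 15, 17 and 16, where 5.32%, 3.15%, 10.4% and 7.66% of all transcripts were. With limma-voom the counts were 2, 3, 2 and 6, where 4.69%, 3.06%, 8.89% and 7.83% of all transcripts were. With limma-voom 0 of the 100 passed an adjusted p of 0.05 at each of these concentrations, where 0%, 0.0108%, 0.0108% and 0.0135% of all transcripts did. With DESeq2, which gave an adjusted p for 64 of the 100, 0, 1, 0 and 3 passed, where 0%, 0.0162%, 0.0135% and 0.0477% of all transcripts did. At 0.12, 1.2 and 2.5 ng/L DESeq2 gave an adjusted p for 37039 of all 37085 transcripts. It thus left out a larger share of the 100 than of all transcripts, and it is no check on the 100 as a whole.

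At 10 ng/L, 1 of the 100 passed, FMt036339, where 0.218% of all transcripts passed. It was higher, as were 0.135% of all transcripts. Its 6 larvae with at least 20 CPM, the level asked for by the choice, were all at 10 ng/L. It was thus chosen through the group in which it was then called, and its p is a description. In controls it had 1.03 to 2.976 CPM with a median of 1.863 CPM. The medians at 0.12, 1.2, 2.5 and 5 ng/L were 1.839, 2.167, 1.941 and 2.21 CPM, and the highest larva in all groups below 10 ng/L had 4.872 CPM. At 10 ng/L it ran from 1.737 CPM through a median of 4.138 CPM to 81.88 CPM. The groups overlapped: 19 of the 28 larvae at 10 ng/L were above the highest control, and 12 were above all 110 other larvae.

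The log2 fold change of FMt036339 at 10 ng/L was 2.50 (SE 0.25, adjusted p = 2.29e-14 by edgeR). Its bursts were in 5 larvae, all at 10 ng/L, larva 47 with 81.88 CPM, larva 57 with 75.54, larva 72 with 35.61, larva 42 with 29.08 and larva 48 with 24.76. At the other concentrations its fold changes were between -0.08 and 0.26, with SE of 0.24 to 0.28. By experiment, its median at 10 ng/L was 2.418 CPM in experiment 1, 9.46 CPM in experiment 2 and 3.473 CPM in experiment 3, against 2.137, 1.86 and 1.783 CPM in the controls. Of the larvae at 10 ng/L, 4 of 10, 9 of 9 and 6 of 9 were above the highest control in the 3 experiments. Without the larva of its maximum the fold change was 2.21 with an adjusted p of 1.131e-13, and without experiment 2 it was 1.95.

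The median change of the 100 differed in sign between concentrations. Their median log2 fold change was 0.34, 0.15, 0.08, -0.12 and 0.03 at 0.12, 1.2, 2.5, 5 and 10 ng/L, where the median over all transcripts was at most 0.01. The counts with a fold change above 0 were 68, 60, 56, 38 and 54 of the 100, and between 50.03% and 52.11% of all transcripts were above 0.

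A joint test over the 6 groups called 16 of the 100 transcripts, where 0.148% of all transcripts were called. Besides FMt036339 (adjusted p = 1.557e-21), the smallest adjusted p-values by edgeR were those of FMt036449 (2.407e-04), FMt035733, FMt046088 and FMt047349 (8.924e-04 each), FMt043101 (9.407e-04) and FMt026700 (0.001373). These calls rested on few larvae. FMt046088 had 25.28, 19.28 and 9.107 CPM in larvae 13, 32 and 73 at 1.2 ng/L and 23.12 CPM in larva 37 at 0.12 ng/L, while the highest of all others had 3.538 CPM. FMt035733 burst in 2 larvae and had no count in 39, with a median of 0.09212 CPM in controls and 0.07969 CPM at 10 ng/L. Without the larva of its maximum its adjusted p in the joint test was 0.03095 by edgeR. FMt026700 had 6 of its 9 bursts at 1.2 ng/L and 2 in controls, and its group medians were between 1.1 and 1.547 CPM.

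With limma-voom, 1 of the 100 was called, FMt036339, and 0.0566% of all transcripts were called. With DESeq2, 11 of the 64 that had an adjusted p were called, where 0.173% of all transcripts were. Of the 16 called by edgeR, DESeq2 called 6 and gave no adjusted p for 10. Without the 4 leading larvae 10 of the 16 were called by edgeR and 0.138% of all transcripts; FMt036449, FMt047349, FMt041062, FMt020452, FMt013681 and FMt002784 were no longer called, each with an adjusted p of 0.9994. Without the larva of its own maximum, 10 of the 16 still passed.

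Between experiments, 49 of the 100 transcripts were called by edgeR, where 11.8% of all transcripts were called. Of the 49, 30 belonged to the group of 36, and 39 had their highest fitted mean in experiment 2. FMt036449 was 3.75 higher on the log2 scale in experiment 2 than in experiment 1 (adjusted p = 1.908e-10), FMt041062 3.10 (3.238e-08), FMt047349 3.03 (8.225e-08) and FMt020452 2.12 (3.917e-05). FMt038156, of the group of 17, was higher in experiment 3 by 1.60 (adjusted p = 3.289e-07), and FMt026700 had log2 differences of -1.69 and -1.62 from experiment 1 in experiments 2 and 3 (adjusted p = 9.811e-05).

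The experiment calls also turned on the leading larvae and on the tool. Without the 4 leading larvae 22 of the 100 were called, where 11.6% of all transcripts were. With limma-voom 8 of the 100 were called, where 10.8% of all transcripts were. With DESeq2 28 of the 64 that had an adjusted p were called, where 13.1% of all transcripts were.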

How the data were processed

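Each library came from 1 larva, lysed with a steel bead; per the labels' protocols the SENSE mRNA-Seq V2 kit was used on 250 ng of RNA. The values are raw counts of reads, which the authors deposited as 1 table by transcript. The submitters' processing notes name edgeR 3.26.8, limma 3.40.6 and bcl2fastq 2.19.1. The aligner, counter, use of strand and treatment of shared reads were not given in the sources used here. Larva 7 at 2.5 ng/L and a line without an identifier (0 to 13 reads per library, 1.6e-05% of reads) were left out, as the choice of transcripts prescribes. Of 64593 genes in the reference table none matched a chosen identifier.

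From the counts, CPM, bursts and groups were computed in Python 3.11.15 with pandas 2.3.3, and figures were drawn with matplotlib 3.10.9. Tests used edgeR 4.0.16 in R 4.3.3 with TMM scaling on all libraries but larva 7, concentration and experiment as terms, and an adjusted p under 0.05; limma-voom (limma 3.58.1) and DESeq2 1.42.0 were alternatives. The edgeR fit was first tested on simulated data, in which a changed transcript had the same fold change in every larva at 10 ng/L. No bursts in a few larvae were built in, so that test does not show how the fit treats the chosen transcripts. The chosen transcripts and the lists were set with earlier results of these data known. Named are the 12 highest ratios, the 10 called members with the smallest p, the 3 most abundant in each of the 6 larvae with most maxima, the 3 highest ratios and the closest pair of the largest groups, runs of identifiers, the 3 with most bursts and the border of the choice. Further members were named after their values were seen.

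Replicate libraries all differed beyond sampling noise: in all 1627 pairs within a group, over 29030 transcripts, chi-square per degree of freedom was 9.436 to 152.9.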

Additional observations from a re-analysis of the deposited data

Results flagged for a closer look

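Larva 7 at 2.5 ng/L, left out by the rule that chose the transcripts, held 15453319 counts and a count for 30768 transcripts. The other larvae had a count for 34800 to 36841 transcripts. In larva 7 at 2.5 ng/L, 4 of the 100 transcripts were above every control larva. The share of all transcripts above every control in this larva was not computed, so nothing is read from that count. FMt014388 had 3731 CPM (57658 counts), above its 1833 CPM in larva 68 at 10 ng/L and its highest control of 209.9 CPM. FMt006980, of the group of 36, had 9.836 CPM against at most 4.537 CPM in controls. FMt036339 had 3.365 CPM against at most 2.976 CPM, and FMt041062 had 1.035 CPM against at most 0.5754 CPM. Of these 4, FMt014388 passed the level counted as a burst, and 2 of the 100 transcripts passed it in this larva.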

How the results depend on the processing

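Larvae with the same number did not in general deviate together (279 pairs, median r = -0.04, 23.66% above 0.1, and -0.03 for other pairs). Whether some larvae of the same number belong together cannot be told from this median. The group of 17 burst in larvae 12 at 10 and 5 ng/L, and in larvae 57 of the controls and at 5 ng/L. The group of 10 burst in larvae 27 at 0.12 and 5 ng/L and in larvae 57 at 5 and 10 ng/L. Larvae 27 at 2.5 and 10 ng/L both held bursts of the group of 11. The 4 leading larvae of the group of 36 bore different numbers. With the number as a replicate block, 1 of the 100 transcripts (0.0755% of all transcripts) was called between the 6 groups instead of 16, and FMt036339 at 10 ng/L had a log2 fold change of 1.82. Over its 13 alternatives that change was 1.71 to 3.21 and always called. FMt036339 was chosen through its larvae at 10 ng/L, and the alternatives use the same counts, so these calls are descriptions too.

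The share of all transcripts called follows each count in parentheses. At 0.12 and 1.2 ng/L, 2 (0.00809%) and 6 (0.0324%) were called with no experiment term, and at 1.2 ng/L 1 without experiment 2 (0.0189%) and 1 with DESeq2 (0.0162%). At 2.5 ng/L 2 were called with larva 7 at 2.5 ng/L kept (2.31%), and at 5 ng/L 3 with DESeq2 (0.0477%). At 10 ng/L 3 were called without shallow libraries (0.14%), 2 without experiment 1, 2 or 3 (0.0674%, 0.0917% and 0.111%), and 5 with DESeq2 (0.341%). Between the 6 groups 8 were called without experiment 1 (0.0674%), 10 without the 4 leading larvae (0.138%) and 1 with limma-voom (0.0566%). Between experiments 26, 14 and 17 were called without experiments 1, 2 and 3 (2.41%, 9.17% and 5.42%), 22 without the 4 leading larvae (11.6%), 8 with limma-voom (10.8%) and 28 with DESeq2 (13.1%). The causes were not tested.

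The burst counts depend on the definition. With 3 times the 90th percentile there were 489 bursts in 79 larvae, 10 larvae held 50% of them, and 1845 pairs burst together. With 10 times the 90th percentile there were 160 bursts in 39 larvae, 4 larvae held 50% of them, and 555 pairs burst together. With the 95th percentile in the choice, 44 larvae burst and 4 held 50%. The 50 highest-ranked transcripts had 213 bursts, 443 pairs and 11 maxima in the leading larva, and with at least 50 CPM there were 825 pairs. The following alternatives were chosen after seeing the data. Without the 4 leading larvae there were 212 bursts, 11 larvae held 50%, controls held 23.11% and 442 pairs burst together. With transcripts chosen without them, 66 were shared, controls held 20.87% and there were 820 pairs. The number of transcripts next to another by identifier was 11 with 1 CPM added, 13 with at least 50 CPM, 13 with the 95th percentile, 3 among the 50 highest-ranked, 12 chosen without shallow libraries and 14 chosen without the 4 leading larvae. Totals of 8756290 to 32906788 counts limit levels near 0, where few counts decide a value.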

Other observations

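Among the 15 transcripts that joined no group, the larvae at the top varied. FMt015767 burst in 8 larvae, from 64.64 CPM in larva 43 at 10 ng/L down through 32.35 CPM in larva 12 at 0.12 ng/L to 26.08 CPM in larva 52 at 2.5 ng/L, with a median of 0.9277 CPM. FMt030421 was highest in larvae 67 and 68 at 10 ng/L, at 23.9 and 19.51 CPM, against a median of 0.03485 CPM. FMt002809 burst only in larva 2 of the controls, at 23.7 CPM. FMt026114 burst in 4 larvae, with 20.45 CPM in larva 52 at 1.2 ng/L and 16.95 CPM in larva 58 at 10 ng/L. These transcripts were named after their values were seen.

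Some transcripts next to a chosen one by identifier rose steeply in the same larva. FMt047380, which had no count in the median larva, had 15.39 CPM in larva 57 at 10 ng/L, and FMt043108 had 18.84 CPM in larva 27 at 0.12 ng/L against a median of 0.1417 CPM. FMt002706 had 1001 CPM in larva 2 of the controls against a median of 49.14 CPM. Each lay beside a transcript with its maximum in that larva.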
